A study of Homo sapiens with 2 samples.

Results

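The plasma membrane amino acid transporters examined here were 10 genes of the solute carrier families, and every array probe whose transcript accession maps to one of their symbols was taken. These were SLC7A11, SLC3A2, SLC7A5, SLC7A1, SLC1A4, SLC1A5, SLC38A1, SLC38A2, SLC6A9 and SLC43A1. Of the 10 genes, 9 had a probe, among 17240 genes named on the array, with 16 probes in all out of 41000. No probe was matched to SLC3A2, so its RNA was not measured here. The 6 genes SLC7A11, SLC7A5, SLC7A1, SLC1A4, SLC38A1 and SLC38A2 had several probes, and SLC1A5, SLC6A9 and SLC43A1 had 1 each.

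SKOV3 is a human ovarian adenocarcinoma cell line that grows attached to the dish. Total RNA of cl-sh3, a SKOV3 clone carrying a short hairpin RNA against the transcription factor RUNX2, was compared with total RNA of a control (mock-transfected) clone. Both clones came from lentiviral transduction with the pLKO.1-puro vector and selection in puromycin, and the vector of the control encoded a scramble sequence without a mammalian target. Both grew in RPMI medium with fetal calf serum, glutamine and pyruvate. Each group is a single clone, so RUNX2 knockdown and any other difference between these clones cannot be told apart. The RNAs were hybridized together on 2 arrays of 1 slide, with cl-sh3 in Cy5 and control in Cy3 in hybridization 1 and the dyes reversed in hybridization 2. The same pair of RNAs on both arrays amounts to 1 replicate, so no test between the clones was possible and no p-value is given. Since bulk RNA was measured, fewer cells with a transcript and less transcript per cell cannot be told apart.

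Amino acids cross the plasma membrane through carriers with overlapping preferences. Some exchange one amino acid for another, some are driven by the sodium gradient and some only let their substrate run down its own gradient. In the heteromeric carriers a light chain such as SLC7A11 or SLC7A5 moves the substrate, and the heavy chain SLC3A2 brings it to the membrane. Tumour cells are known for a high demand for glutamine, leucine and cystine, the last of which feeds glutathione synthesis. Many of these genes are known targets of ATF4, the transcription factor of the amino acid response, which binds composite C/EBP-ATF response elements (CAREs).

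Ratios are given as log2 of cl-sh3 over control, so that a negative value means a lower signal in cl-sh3. RUNX2 itself gave -2.04 in hybridization 1 and -1.30 in hybridization 2 on its brightest probe, a mean of -1.67. Its other probes, which are dimmer, gave means of 0.02 and -0.23. The median ratio of all 36065 probes with a signal above background was 0.02 in hybridization 1 and -0.00 in hybridization 2. Between hybridizations, the ratio of a kept probe moved by 0.22 in the median, and 95% of probes moved by less than 0.63. Of the epithelial and ovarian markers, 8 of 8 had a signal above background and KRT8, KRT18 and KRT19, the keratins of simple epithelia, were between 0.37 and 0.68 higher on average in cl-sh3. ERBB2, which encodes a receptor tyrosine kinase, gave -0.86 and -0.45 on its brightest probe and 0.26 and 0.18 on the other, so its probes were opposite in sign. All 6 measured markers of leukocytes, endothelium and fibroblasts also carried the above-background mark. Their mean ratios ran from -0.15 to 0.14, so the mark alone does not show that a gene is expressed.

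Promoter sequences were searched for the motifs of ATF4, NFE2L2, MYC and RUNX factors. Many of the transporters were already known as ATF4 targets, so the share holding its motif cannot be read apart from their choice. The windows ran from 250 bases before to 50 bases after each annotated start in the RefSeq table of GRCh38.p14. The table held 16 windows for 9 of the 10 transporters. SLC7A11 is not among them. The core of a CARE, TGATGNAA on either strand, was found in 5 of the 16 windows (31.2%), against 3.62% of all 35116 promoter windows. By gene, 5 of 9 transporters (55.6%) held it, against 4.46% of 27305 genes, and the transporters had 1.78 windows per gene where all genes had 1.29. The matches are shown with up to 11 bases on each side, written 5′ to 3′ on the strand of the gene, with the core in capitals.
SLC1A4: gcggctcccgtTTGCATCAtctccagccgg
SLC3A2: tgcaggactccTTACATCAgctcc
SLC38A1: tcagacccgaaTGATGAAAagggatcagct
SLC7A1: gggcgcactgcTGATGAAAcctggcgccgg
SLC1A5: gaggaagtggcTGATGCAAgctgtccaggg
In SLC38A1, SLC7A1 and SLC1A5 the core reads along the gene, and in SLC1A4 and SLC3A2 it reads on the opposite strand. The SLC1A4 stretch lies at chr2:64989381-64989410 (+ strand), where the match begins 7 bases before the start. That of SLC3A2 lies at chr11:62881725-62881748 (+ strand), 37 bases after the start. The SLC38A1 stretch is at chr12:46266502-46266531 (- strand) and begins its match 4 bases before the start. SLC7A1 holds it at chr13:29595663-29595692 (- strand), 7 bases after the start. In SLC1A5 it is at chr19:46784893-46784922 (- strand), 97 bases before one of the annotated starts. A match shows only that these letters are present, and binding was not measured.

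The other motifs searched, also on both strands, gave shares nearer to those of all windows. The antioxidant response element core TGACNNNGC, read by NFE2L2, was present in 4 of 16 windows (25%) against 13.3% of all windows, in SLC3A2, SLC7A1, SLC7A5 and SLC1A5. The E-box CACGTG, read by MYC among others, was present in 3 of 16 (18.8%) against 7.26%, in SLC1A5, SLC43A1 and SLC7A5. The RUNX core TGTGGT was present in 1 of 16 (6.25%) against 13.1%. That match, 234 bases before a start of SLC38A1, is shown for the knocked-down factor, at chr12:46268205-46268232 (- strand), with the core in capitals.
SLC38A1 RUNX core: ctgtggcagagTGTGGTaccagatctgg
No match of one motif shown here overlapped a match of another. Among all measured genes with a promoter in the table, the median ratio of the 410 with a CARE core was -0.00 and that of the 12441 without it was 0.01.

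SLC7A11, the cystine and glutamate exchanger light chain xCT, was lower in cl-sh3 on all 3 of its probes and in both hybridizations. Levels are log2 normalized intensities of a probe. On the brightest probe (A_32_P165477, transcript NM_014331) cl-sh3 read 10.74 and control 11.74 in hybridization 1, and 11.07 and 11.22 in hybridization 2. The ratios were therefore -0.99 and -0.15, a difference of 0.84 between hybridizations, the widest of any transporter probe. The next probe (A_32_P42684) read 9.88 in cl-sh3 and 11.46 in control, then 10.41 and 11.41. Here both hybridizations separated the clones, with cl-sh3 2.98-fold lower in hybridization 1 and 1.998-fold lower in hybridization 2, a mean ratio of -1.29. This probe therefore fell just outside the rule of at least 2-fold in both hybridizations. The dimmest probe (A_24_P200420) read 8.47 against 8.95 and 8.44 against 8.95, with ratios of -0.48 and -0.51. Its hybridizations lay closest together of the 3 probes. The probes thus kept one direction and ran in their means from -1.29 to -0.49, a spread of 0.79 within the gene.

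Levels in the 4 channels hold the same differences as the ratios and are not separate support. The cl-sh3 points lie to the left of the control points in both hybridizations for 10 of the 16 probes.

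**Figure D1:**
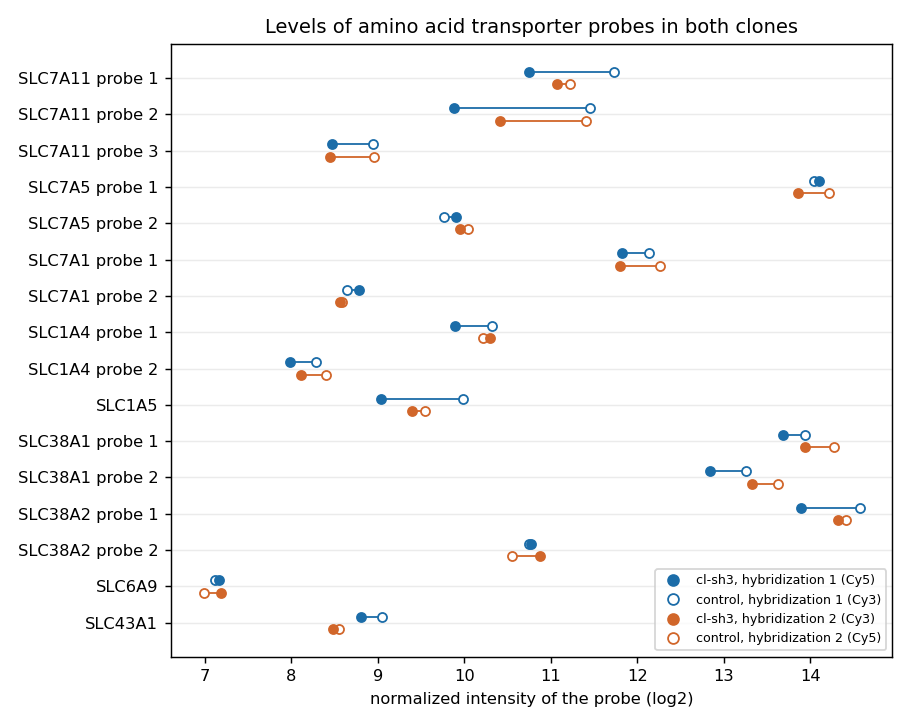
Log2 normalized intensity (horizontal axis) of the 16 transporter probes (rows) in cl-sh3 (filled points) and control (open points), with hybridization 1 in blue and hybridization 2 in orange, each line joining the clones within a hybridization. The longest lines belong to SLC7A11 probe 2, from 11.46 to 9.88 and from 11.41 to 10.41, and levels of different probes are not comparable with each other.

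SLC7A5 is the light chain LAT1, which takes up leucine and other large neutral amino acids. It did not keep one direction on either probe. The brightest probe (A_24_P335620, NM_003486) read 14.11 in cl-sh3 and 14.04 in control in hybridization 1, and 13.86 and 14.22 in hybridization 2. The other probe (A_23_P3792) read 9.90 against 9.76, then 9.95 against 10.04. Mean ratios were -0.15 and 0.03, both smaller than the distance between the hybridizations.

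SLC7A1, the cationic amino acid transporter CAT1 for arginine and lysine, was lower on its brightest probe (A_24_P253251, NM_003045) in both hybridizations. That probe read 11.82 in cl-sh3 against 12.14 in control, and 11.80 against 12.27. The mean ratio was -0.40, or 1.32-fold lower, and was larger than the difference between hybridizations. The dimmer probe (A_23_P117242) read 8.79 against 8.65, and 8.56 against 8.59, with a mean of 0.06. The probes of SLC7A1 were 0.45 apart in their means, and only the brighter one separated the clones.

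The sodium-dependent exchangers SLC1A4 (ASCT1) and SLC1A5 (ASCT2) carry alanine, serine and cysteine, and SLC1A5 also carries glutamine. For SLC1A5 the single probe (A_23_P55998, NM_005628) read 9.04 in cl-sh3 and 9.99 in control in hybridization 1, against 9.40 and 9.54 in hybridization 2. The ratios of -0.95 and -0.14 were both negative, with a mean of -0.54 (1.46-fold lower), but differed from each other by more than this mean. For SLC1A4, the brightest probe (A_23_P91151, NM_003038) read 9.89 against 10.32, then 10.30 against 10.22. This probe gave -0.43 and 0.08 and had no common direction. The dimmer SLC1A4 probe (A_24_P191312) read 7.99 against 8.29 and 8.12 against 8.40, with ratios of -0.30 and -0.28. Both hybridizations placed cl-sh3 below control on this probe by nearly the same amount.

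SLC38A1 and SLC38A2 (SNAT1 and SNAT2) take up glutamine, alanine and other small neutral amino acids together with sodium. SLC38A1 was lower on both probes and in both hybridizations. Its brightest probe (A_24_P261734, NM_030674) read 13.68 in cl-sh3 and 13.95 in control, then 13.94 and 14.28. Its other probe (A_23_P363399) read 12.84 and 13.26, then 13.32 and 13.62. The means of -0.30 and -0.36 (1.23-fold and 1.28-fold lower) lay 0.06 apart, the closest of the 6 genes with several probes. SLC38A2 was divided. The brightest probe (A_24_P295963, NM_018976) read 13.89 against 14.57, then 14.32 against 14.42, for ratios of -0.68 and -0.10. The dimmer probe (A_23_P218079) read 10.77 against 10.75, then 10.88 against 10.55, for ratios of 0.02 and 0.33. The SLC38A2 probes were thus 0.56 apart and opposite in sign, and no direction is given for the gene.

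The remaining carriers differed little. SLC43A1 (LAT3), which lets branched-chain amino acids and phenylalanine through by facilitated diffusion, read 8.81 in cl-sh3 and 9.05 in control, then 8.48 and 8.56, on its probe A_23_P52939 (NM_003627). The mean ratio was -0.16. SLC6A9 (GLYT1), which takes up glycine with sodium and chloride, read 7.16 against 7.12 and 7.18 against 6.99 on A_23_P11984 (NM_201649). Its mean of 0.12 was the only positive one among the brightest probes. Its control signal in hybridization 2 was not well above background, which leaves 1 of 2 hybridizations with both clones measured. The other 15 transporter probes were well above background in all 4 channels.

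The ratios of all 16 probes are set side by side in the plot of ratios by hybridization.

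**Figure D2:**
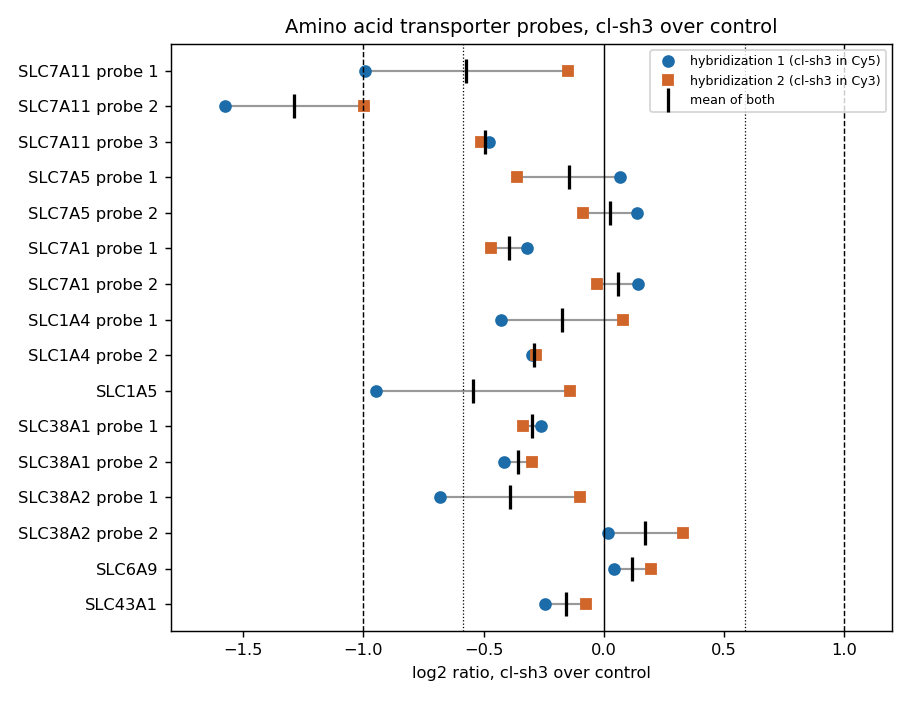
Log2 ratio of cl-sh3 over control (horizontal axis) for each transporter probe (rows) in hybridization 1 (blue circles) and hybridization 2 (orange squares), with a black bar at their mean, dashed lines at 2-fold and dotted lines at 1.5-fold in either direction. SLC7A11 probe 2 has both points beyond 1.5-fold, at -1.58 in hybridization 1, and SLC38A2 probe 2 and SLC6A9 are the probes with both points above 0.

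The transporters were chosen with earlier results of these data known, so shares here and by gene below cannot be read apart from that choice. Counted together, 10 of the 16 probes (62.5%) were lower in both hybridizations, where 27.3% of all probes were. Only 2 of 16 (12.5%) were higher in both, against 29.8% of all probes, and 4 had no common direction. The mean ratio was below 0 for 12 of the 16 probes and above 0 for 4, where 47.1% of all probes had a mean below 0. The median over the 16 probes was -0.30. The size of the mean exceeded the difference between hybridizations for 6 probes, and all 6 were lower in cl-sh3. The share of all probes under this rule was not computed, so this count has no baseline. Most of these differences were small. No probe was at least 2-fold lower in both hybridizations (0.394% of all probes were) and none was at least 2-fold higher (0.122%). At least 1.5-fold lower in both was 1 of 16 probes (6.25%), the SLC7A11 probe A_32_P42684, against 2.32% of all probes, and none was at least 1.5-fold higher (1.35%).

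With each gene represented by its brightest probe, 6 of 9 transporters (66.7%) were lower in both hybridizations, where 28.4% of 16153 genes were. These were SLC7A11, SLC7A1, SLC1A5, SLC38A1, SLC38A2 and SLC43A1. SLC6A9 was the 1 of 9 (11.1%) that was higher in both, against 30.9% of genes. By the 1.5-fold rule 0 of 9 were lower (2.61% of genes) and 0 higher (1.6%), and by the 2-fold rule none was lower (0.52%) or higher (0.136%). The median ratio of the 9 genes was -0.30, and that of all genes was 0.01. The transporter median was -0.32 in hybridization 1 and -0.14 in hybridization 2. It was -0.17 when the probes of each gene were averaged, and the dimmer probes of SLC7A5, SLC7A1 and SLC38A2 had means above 0. With both hybridizations in use, all 16 probes kept the sign of their mean under each change of background correction, normalization or source of the ratios. They also did under each change of filter, except that requiring both RNAs above background removed SLC6A9. The SLC6A9 mean was 0.02 with the software's log ratio.

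Hybridization 1 gave the lower ratio for SLC7A11 probes A_32_P165477 and A_32_P42684, SLC1A5, SLC38A2 probe A_24_P295963 and SLC1A4 probe A_23_P91151. Smaller differences in the same direction were seen for the dimmer probes of SLC1A4, SLC38A1 and SLC38A2, and for SLC43A1 and SLC6A9. Over all probes, hybridization 1 alone put 506 probes at least 2-fold lower and 88 higher, and hybridization 2 alone put 196 lower and 219 higher. The part of this imbalance in the transporter values was not tested. Both probes of SLC7A1 and SLC7A5, the brightest probe of SLC38A1 and the dimmest of SLC7A11 gave a lower ratio in hybridization 2 than in hybridization 1.

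**Figure D3:**
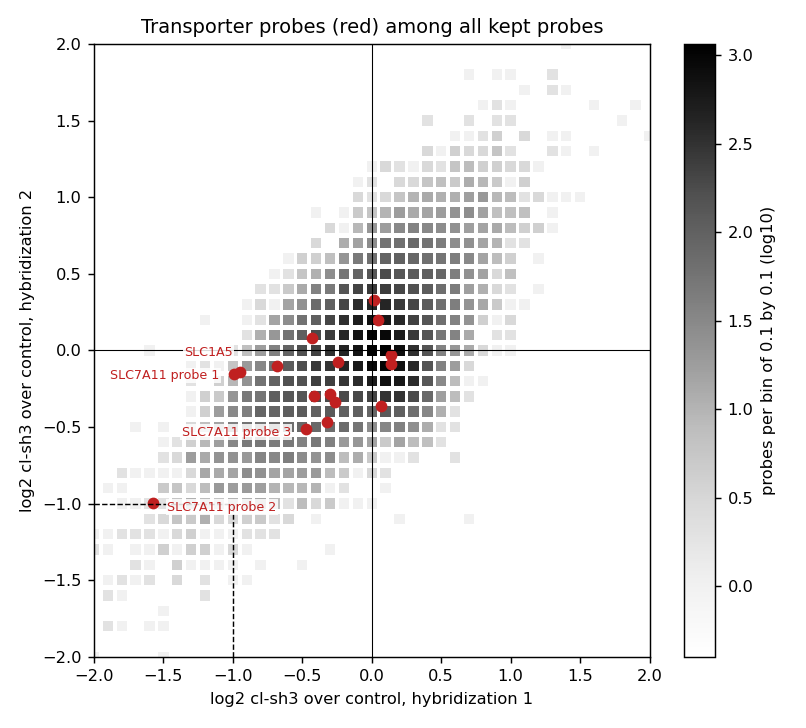
Log2 ratio of cl-sh3 over control in hybridization 1 (horizontal) against hybridization 2 (vertical), with transporter probes in red and all other probes above background as grey squares, darker for more probes (log10 scale); axes end at 2 in either direction and the dashed corner marks at least 2-fold lower in both. SLC7A11 probe 2 sits on the edge of that corner at -1.58 on the horizontal axis, and 10 of 16 red points lie in the lower left quadrant.

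The genes whose ratios lay nearest to those of the brightest SLC7A11 probe, by Euclidean distance over the 2 hybridizations, were TSNAX, C3orf38, PRKAR1A, SLC1A5 and TGIF2. PRKAR1A gave -1.01 and -0.18, and TGIF2, the farthest of the 5, gave -0.97 and -0.10. In all, 17 genes lay within 0.1 of this SLC7A11 probe. SLC1A5, a transporter of the same set, was at a distance of 0.048. The hybridizations differed more on this SLC7A11 probe than on any other transporter probe, and the other SLC7A11 probes gave other ratios. Nearness therefore describes this probe and not the gene as a whole.

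Other carriers of amino acids had medians nearer to 0 over both hybridizations, though less clearly in hybridization 2, and the difference from the transporters above was not tested. Of 28 further plasma membrane amino acid transporters, 25 had a probe above background. In both hybridizations 4 of these (16%) were lower and 3 higher, where 28.4% of all genes were lower and 30.9% higher. The median of these carriers was 0.07 in hybridization 1, -0.10 in hybridization 2 and -0.03 for the mean of both, with means from -0.79 to 0.42. In hybridization 2 this lay close to the -0.14 of the 9 transporters, and in hybridization 1 it did not. The lowest was SLC1A3, a glutamate transporter, with ratios of -0.70 and -0.88 on probe A_24_P286114. It was the 1 gene of this list at least 1.5-fold lower in both. The highest was SLC3A1, the heavy chain of the cystine and dibasic amino acid carrier, at 0.32 and 0.52. For the lysosomal carriers the median over 7 genes was 0.02 in hybridization 1, -0.10 in hybridization 2 and 0.03 for the mean of both, and 2 were lower and 2 higher in both hybridizations. For the mitochondrial carriers the median was -0.03 over 8 genes, with 2 lower and 3 higher. It was 0.06 in hybridization 2 alone and -0.11 with the software's log ratio, by which the median of the 9 transporters was -0.25. Carriers of glucose and monocarboxylates, which bring in other fuels, had a median of -0.00 over 12 genes, with 2 lower and 4 higher.

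Of the enzymes that use the imported amino acids, 6 of the 11 reported here were lower and 2 of 11 higher in both hybridizations. Of all genes, 28.4% were lower and 30.9% higher in both. The enzyme counts leave out 1 further enzyme of the list, whose value was known, so no median of the list is quoted. The median bar of this list in the plot of lists leaves out the same enzyme and is not interpreted. ASNS, which makes asparagine from aspartate and glutamine, had ratios of -2.06 and -2.10 and was the only one at least 2-fold lower in both. The following enzymes were picked after their values were seen. CHAC1, which degrades glutathione, gave -0.70 and -1.22. GCLC, the catalytic subunit of the enzyme that joins glutamate and cysteine in glutathione synthesis, gave -0.88 and -0.59, while its partner subunit GCLM gave -0.23 and 0.23. GLUL, glutamine synthetase, gave -1.06 and -0.37. BCAT1, which transaminates branched-chain amino acids, was higher at 0.84 and 0.89 on its brightest probe, but the other probe above background had a mean of 0.10.

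Genes of amino acid sensing had a median of -0.10 over 24 measured genes, of which 10 were lower and 7 higher in both hybridizations. This median was -0.06 in hybridization 1 and -0.04 in hybridization 2, and -0.02 with centring on the median in place of loess. ATF4 was the 1 gene at least 2-fold lower in both, with -1.54 and -1.30 on its brightest probe and a mean of -0.77 on the other. Among 10 known regulators of these transporters the median was -0.27, and 5 were lower and 2 higher in both hybridizations. The regulator median was -0.18 with centring on the median and -0.14 when the probes of each gene were averaged. Beside the counts of both lists, 28.4% of all genes were lower and 30.9% higher in both. Of these regulators, also named after their values were seen, NFE2L2, which drives SLC7A11 in oxidative stress, gave -0.40 and -0.85. HIF1A, the oxygen-regulated factor, gave -0.55 and -0.83. MYC, which drives glutamine carriers, gave -0.08 and 0.12.

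**Figure D4:**
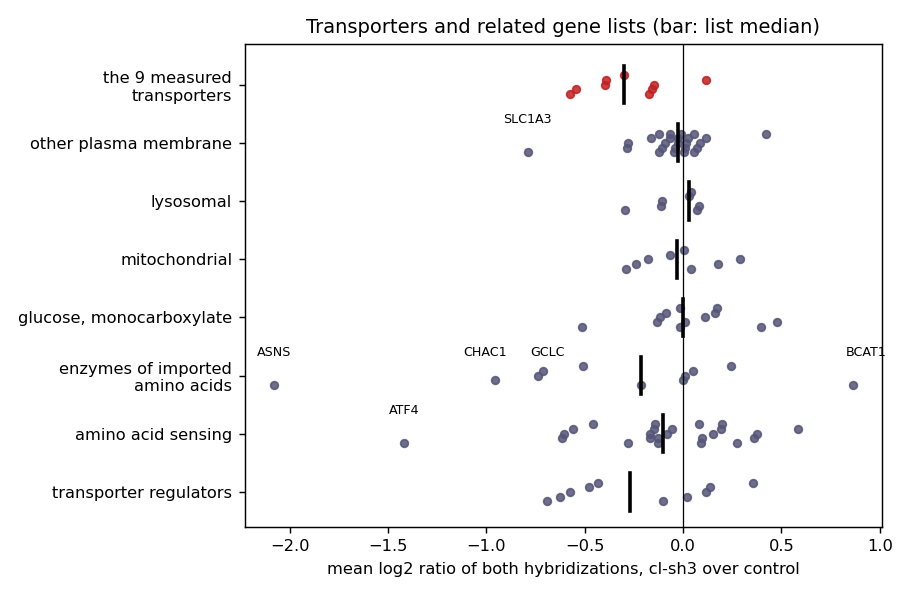
Mean log2 ratio of both hybridizations, cl-sh3 over control (horizontal axis), for the brightest probe of each gene (points) in the measured transporters (red) and 7 related lists (grey), with a black bar at each list's median (1 enzyme left out); vertical offsets only separate points. The transporter median of -0.30 lies left of the other carrier lists, whose medians run from -0.03 to 0.03, while ASNS at -2.08 and ATF4 at -1.42 lie farthest left.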

How the data were processed

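Dual-colour Agilent whole human genome arrays were hybridized with RNA of cl-sh3 and of the control clone, with dyes reversed. The authors deposited spot intensities as median pixel signals with local backgrounds and flags, not normalized, together with a log10 ratio of Cy5 over Cy3 that the scanner software had background-corrected and dye-normalized. A deposited table of log10 ratios differed from it by at most 0.00500. The file headers give Feature Extraction 10.5.1.1 and the submitters' processing notes give 8.5.1.1. For data extraction and normalization the paper refers to an earlier article. The authors selected genes at least 2-fold different in both hybridizations, and their comparison with RUNX1 knockdown arrays and their clustering and network analyses were not used here.

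The intensities were corrected for background by normexp with an offset of 50 (limma 3.58.1, R 4.3.3). Control spots were dropped, as were the 153 and 144 spots flagged as outliers, and loess was fitted within each array. The average log2 intensities of the spots were then quantile-normalized between the arrays, which changes the levels and leaves the ratios as they were. Replicate spots were averaged per probe, with log2 ratios oriented as cl-sh3 over control. Median spot signals were 451 to 902.5 per channel, over backgrounds of 43 to 166.5, and 0 spots were saturated. A probe was retained if the same RNA, cl-sh3 or control, carried the software's above-background flag in both hybridizations, on at least 50% of its spots. That left 36065 of 41000 probes, of which 36060 had both ratios. Over 256 probes with at least 5 spots, the median SD among spots was 0.12 and 0.11 on the log2 scale in the 2 hybridizations. Precision is limited by the number of arrays, and all spread seen is technical.

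Accessions were named through RefSeq (GRCh38.p14), without versions, for 18023 of 19228 RefSeq accessions, and RUNX2's NM_004348 through the study's supplement. The array files rest on another build, so array coordinates were not used. Promoter sequences are RefSeq's. The text names all transporter probes, RUNX2, list members at least 2-fold different in both hybridizations (1.5-fold for other amino acid carriers) and the 5 genes nearest to the transporter with the largest mean ratio by brightest probe. One enzyme of these lists is not reported here and was left out of its list's counts and median for a reason other than its value, which was known by then. The transporters and the gene lists were chosen with earlier results of these data known. The normalization and the fold rules were tested on simulated data. The alternatives were an offset of 0, foreground signals without correction, centring on the median in place of loess, flagged spots kept, no detection filter, both RNAs above background, the software's log ratio, the deposited table, each hybridization alone, thresholds on the mean, and averaging a gene's probes. Tables and plots were made in Python 3.11.15 (numpy 2.4.6; pandas 2.3.3; matplotlib 3.10.9).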

Additional observations from a re-analysis of the deposited data

How the results depend on the processing

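No transporter probe was at least 2-fold lower in both hybridizations. With normexp at offset 0, the software's log ratio, the deposited table or the threshold on the mean of both hybridizations this count was 1, the SLC7A11 probe A_32_P42684, and leaving out each hybridization in turn it ran from 0 to 1. The count of transporter genes at least 1.5-fold lower was 0 and ran from 0 to 3 with each hybridization left out. The 3 genes, SLC7A11, SLC1A5 and SLC38A2, passed in hybridization 1 alone. The median ratio of the transporter genes was -0.30, ran from -0.32 to -0.14 with each hybridization left out, and was -0.17 when the probes of each gene were averaged. Of 96 alternative values of the counts and medians of the transporters and of the other plasma membrane carriers, 88 stayed close to the value reported, 8 moved as listed here. Single transporter probes and the medians of the further gene lists gave 247 alternative values, of which 224 stayed close and 23 moved. Among those that moved were medians of the sensing genes, the regulators and the lysosomal and mitochondrial carriers. The median of the other plasma membrane carriers, -0.03, was 0.07 in hybridization 1 alone and so changed sign, and was -0.10 in hybridization 2 alone. Of all probes at least 2-fold different in both hybridizations, 142 were lower and 44 higher, and with median centring 124 were lower and 77 higher. No paired analysis was possible because both hybridizations hold the same pair of RNAs. One replicate of 1 clone per group allows no statement on biological spread, and dim probes such as that of SLC6A9 are close to background.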

Other observations

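Further genes of amino acid use, named after their values were seen, are given as ratios in hybridization 1 and hybridization 2. GSS, glutathione synthetase, gave -0.06 and 0.17, without a common direction. Of the enzymes of arginine use, ODC1, which makes putrescine from ornithine, gave -0.39 and -0.62, and ARG2, the mitochondrial arginase, gave -0.28 and -0.14. Among lysosomal carriers, SLC38A9, the arginine sensor of the lysosome, was the lowest at -0.32 and -0.27. Among mitochondrial carriers, SLC25A12, the aspartate and glutamate exchanger, was the lowest at -0.27 and -0.31, and SFXN1, the serine carrier, was the highest at 0.12 and 0.46. In the sensing list, LAMTOR3 gave -0.52 and -0.68 and LAMTOR5 gave 0.48 and 0.69, although both proteins belong to the Ragulator complex that anchors mTORC1 at the lysosome. SESN2, a leucine sensor and a known ATF4 target, gave -0.38 and -0.74.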
